A study of Rattus norvegicus with 56 samples.

Results

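The livers of female rats of the control group (CON) were compared between the dark phase and the light phase. The comparison holds 6 of the 56 liver RNA libraries of the series: 3 from zeitgeber time 4 (ZT4, hours after lights on, in the light phase) and 3 from ZT16 (in the dark phase). They were chosen by their labels alone: female sex, the CON study group and the time. All 6 rats were Sprague-Dawley offspring taken at day 180 and housed in cycles of 12 h light and 12 h dark, and their dams stayed on regular chow. The same comparison of times in 3 other groups was set beside them, none of which shares a library with CON females. CON males (3 and 3 libraries) were offspring of the same kind of dams. For HFhf females (3 and 4 libraries) the dams received, from gestation day 11, Western chow and fructose water. For IUGR-HFhf females (4 and 4 libraries) the dams' food was cut by 50% between gestation day 10 and delivery, and they were then given the HFhf diet. Libraries of HFhf and IUGR-HFhf males, and of both sexes of a further study group labelled IUGR-RC, entered the fit and are not compared here. The diet of the offspring after weaning is not given in the sources used here. The labels give no litter or pairing, so nothing says that the rats of a group came from separate dams, and 2 times cannot show the phase or the amplitude of a daily rhythm.

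The 6 libraries held 18743523, 16233689 and 17214037 counted reads at ZT4 and 13642442, 8031922 and 11584928 at ZT16, so the ZT4 libraries were the deeper ones. Levels are given as CPM, counts scaled to a common library size after TMM correction (edgeR's CPM), and are compared within a gene only. Hepatocyte markers summed to 235668 to 247151 RPM (reads scaled by the counted total alone) at ZT4 and 217495 to 252527 at ZT16, which fits the labelled tissue. Eif2s3y, a gene of the Y chromosome, had at most 0.0534 RPM in the CON females and 37.8 to 46.6 in the CON males, as the sex labels state. Ddx3y, another Y-linked gene, had at most 1.49 RPM in either sex. Of the marker lists of other cells, 11 macrophage markers summed to 605 to 688 RPM at ZT4 and 732 to 904 at ZT16. The 11 markers of stellate cells and fibroblasts went the other way, from 581 to 678 at ZT4 to 445 to 538 at ZT16, and the 4 B cell markers from 1.91 to 2.61 down to 1.25 to 1.64. The sums of these 3 lists did not overlap between the times, those of endothelium, cholangiocytes, T and NK cells, neutrophils, red blood cells, muscle, acinar pancreas and adipocytes did, and their part in the results was not tested. Of single tested markers, 2 of 11 for macrophages and 7 of 10 for stellate cells and fibroblasts did not overlap in CPM. Over all tested genes, 15.1% lay higher at ZT16 without overlap and 14.9% lower. In bulk tissue, fewer cells of a type and less RNA per cell cannot be told apart. By the correlation of log2 CPM, the ZT16 library of replicate 1 lay nearer to the ZT4 libraries (r = 0.978 to 0.983) than the other ZT16 libraries did (0.972 to 0.975), where libraries of the same time correlated at 0.984 to 0.989.

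The circadian clock is a feedback loop that runs in almost every cell and keeps time in the liver against feeding and light. BMAL1 (the protein of Arntl) pairs with CLOCK or NPAS2 and switches on genes that carry E-boxes, among them the Period and Cryptochrome genes, whose proteins then inhibit the pair. A second loop times Arntl and Npas2 themselves: the REV-ERB receptors (Nr1d1, Nr1d2) repress them and the ROR receptors activate them through a shared DNA element, and the PAR bZIP factors (Dbp, Tef) pass the rhythm on through D-boxes. In rats, which eat mostly at night, the loop drives large daily changes in liver enzymes of sugar, lipid, bile acid and drug metabolism.

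The promoters of 4 of the clock genes are shown because each carries a match to an element of these loops. They are the 250 bases upstream of the start site in RefSeq's assembly GRCr8, 5′ to 3′ on the gene's strand. Capitals mark matches to the E-box CACGTG, the D-box TTANGTAA or the core of the ROR element, TAGGTCA. Ciart (chr2:186112247-186112496, minus strand) holds 3 E-boxes, Tef (chr7:115206577-115206826, plus strand) holds 1, Per2 (chr9:99496994-99497243, minus strand) holds 1 D-box and Arntl, listed by RefSeq as Bmal1 (chr1:176766078-176766327, plus strand), holds 1 ROR core.
Ciart: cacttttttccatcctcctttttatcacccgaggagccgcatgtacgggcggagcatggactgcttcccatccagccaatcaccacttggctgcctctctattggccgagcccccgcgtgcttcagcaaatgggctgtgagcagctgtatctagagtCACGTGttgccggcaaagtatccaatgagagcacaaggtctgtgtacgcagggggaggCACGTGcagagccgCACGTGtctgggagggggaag
Tef: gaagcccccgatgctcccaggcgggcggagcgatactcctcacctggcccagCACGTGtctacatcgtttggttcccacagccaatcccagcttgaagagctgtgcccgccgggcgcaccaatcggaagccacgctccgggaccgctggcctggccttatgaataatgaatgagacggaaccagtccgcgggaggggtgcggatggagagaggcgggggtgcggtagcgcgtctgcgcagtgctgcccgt
Per2: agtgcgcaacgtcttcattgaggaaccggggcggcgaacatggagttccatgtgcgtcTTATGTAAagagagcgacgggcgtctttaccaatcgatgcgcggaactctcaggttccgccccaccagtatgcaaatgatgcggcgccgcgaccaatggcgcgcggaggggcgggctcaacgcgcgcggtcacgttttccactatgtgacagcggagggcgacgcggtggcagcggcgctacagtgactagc
Arntl: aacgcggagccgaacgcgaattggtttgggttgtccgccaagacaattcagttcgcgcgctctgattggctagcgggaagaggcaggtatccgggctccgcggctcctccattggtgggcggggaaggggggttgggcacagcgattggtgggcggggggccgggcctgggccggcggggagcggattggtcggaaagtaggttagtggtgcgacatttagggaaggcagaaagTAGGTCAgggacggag
In the data below, the genes with these E-boxes and this D-box were higher at ZT16, and Arntl was lower. Bhlhe40, a clock gene that also holds an E-box, is not shown and was not called. Outside the clock lists, Elovl5, Cth and Atf4 hold an E-box and fell, Hsph1 holds one and rose, and Gnl3 was not called. No match was found for Npas2, Dbp or Per3, nor for Clock, Nfil3, Nr1d1, Nr1d2, Per1, Cry2, Csnk1e, Timeless or Tipin. Cry1 and Csnk1d had no promoter window to search.

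Of 11047 genes tested, 639 (5.78%) had an adjusted p under 0.05, written here as called. At ZT16, 260 (2.35%) were higher and 379 (3.43%) were lower. At least 2-fold changes were called in 77 higher (0.697%) and 129 lower genes (1.17%), at least 4-fold in 23 and 31, and at least 8-fold in 9 and 11. The CPM of the 3 ZT4 libraries and the 3 ZT16 libraries did not overlap in 632 of the 639 called genes. Over all tested genes, 15.1% lay higher at ZT16 without overlap and 14.9% lower. The median log2 fold change over all tested genes was 0.01. Of genes at 100 CPM or more on average 9.45% were called, and of those under 1 CPM 0.892%, where the standard errors were also widest. The counts depended on which libraries entered the fit. Without the IUGR-RC libraries, which belong to other groups, 422 genes were called higher and 539 lower, and in the 6 libraries alone 374 and 464. Without replicate 1, 2 or 3 at ZT4 the higher genes were 141, 125 and 144 and the lower genes 254, 232 and 221. Without replicate 1, 2 or 3 at ZT16 the higher genes were 222, 143 and 122 and the lower genes 351, 194 and 176.

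**Figure D1:**
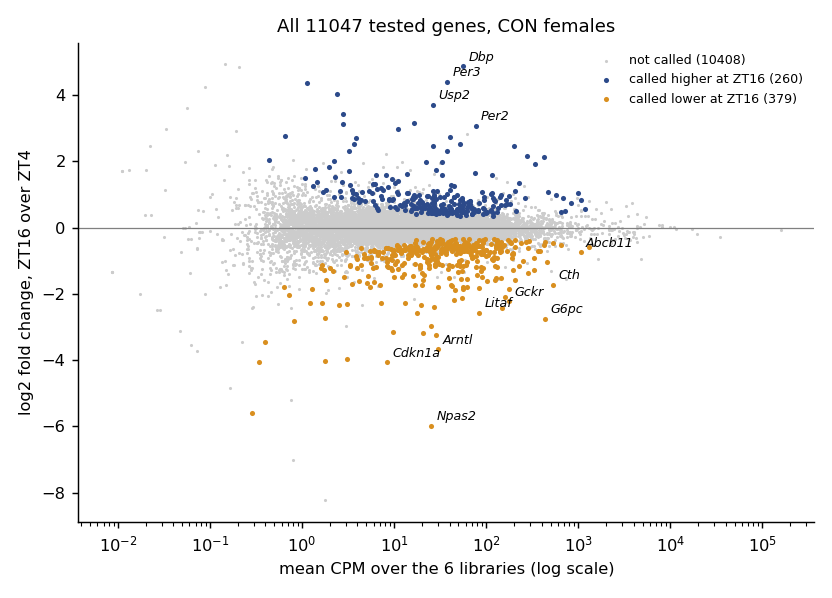
Log2 fold change of ZT16 over ZT4 (vertical axis) against the mean CPM over the 6 CON female libraries (horizontal, log scale) for the tested genes, except the 17 with no read in these libraries. The 260 genes called higher and 379 called lower are coloured, and clock genes such as Npas2, Arntl, Dbp and Per3 lie at the extremes.

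The activators of the clock were low in the dark phase. Of the 6 tested genes of the list of activators and their regulators, 4 fell and 1, Nr1d2, rose. With 83.3% called, against 5.78% of all tested genes, the list had a median log2 fold change of -0.76. Npas2 had 45, 51.4 and 51.6 CPM at ZT4 and 1.41, 0.366 and 0.316 CPM at ZT16. The groups were far apart, although replicate 1 at ZT16 was above the other ZT16 libraries (log2 fold change -5.99, SE 0.82, adjusted p = 8.24e-06). Arntl had 56, 52.2 and 57.9 CPM at ZT4 and 7.51, 2.68 and 2.37 CPM at ZT16, again with replicate 1 highest at ZT16 (log2 fold change -3.66, SE 0.64, adjusted p = 0.000241). Without that library the log2 fold changes were -7.15 for Npas2 and -4.47 for Arntl. Npas2 fell the most of all called genes.

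Clock, the third activator, had 103, 129 and 115 CPM at ZT4 and 79.5, 69.1 and 65 CPM at ZT16, a much smaller fall with no overlap (log2 fold change -0.70, SE 0.15, adjusted p = 0.00236). Nfil3, a repressor that binds D-boxes, had 87.6, 81.6 and 89.9 CPM at ZT4 and 49, 47.1 and 50.9 CPM at ZT16 (log2 fold change -0.82, SE 0.23, adjusted p = 0.0256); its call was lost whichever of the 6 libraries was left out. Of the REV-ERB genes, Nr1d2 had 37.2, 36.3 and 35.1 CPM at ZT4 and 102, 109 and 129 CPM at ZT16 and rose (log2 fold change 1.65, SE 0.35, adjusted p = 0.00205). Nr1d1 had 20.7, 25.4 and 19.8 CPM at ZT4 and 23.2, 32.3 and 35 CPM at ZT16, which overlap, and was not called (log2 fold change 0.45, SE 0.53, adjusted p = 0.711).

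The repressors that passed the test were high in the dark phase. Of the 12 tested genes of the list of repressors and modifiers, 3 rose and none fell, with a median of 0.79. With 25% called, against 5.78% of all tested genes, 10 of the 12 had a positive log2 fold change. Per3 had 3.51, 3.64 and 3.03 CPM at ZT4 and 75.9, 71.9 and 69.5 CPM at ZT16 (log2 fold change 4.41, SE 0.70, adjusted p = 5.32e-05). Both groups were tight. Per2 had 21.9, 17 and 9.93 CPM at ZT4 and 148, 167 and 96.8 CPM at ZT16, with no overlap and a wider spread (log2 fold change 3.07, SE 0.44, adjusted p = 1.53e-05). Ciart, a repressor of the BMAL1 pair, had 0.258, 0.235 and 0.281 CPM at ZT4 and 2.48, 6.34 and 4.75 CPM at ZT16 (log2 fold change 4.05, SE 0.84, adjusted p = 0.00156); this rests on 5, 4 and 5 reads at ZT4 against 37, 52 and 60 at ZT16.

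Per1, the third Period gene, had 11.3, 4.58 and 24.1 CPM at ZT4 and 55.1, 17.1 and 49.3 CPM at ZT16, which overlap, the lowest ZT16 value (replicate 2) lying under the highest ZT4 value (replicate 3) (log2 fold change 1.61, SE 0.53, adjusted p = 0.0622). Cry1 had 13.8, 9.03 and 10.4 CPM at ZT4 and 21.1, 15.8 and 22.5 CPM at ZT16, with no overlap, and missed the threshold (log2 fold change 0.84, SE 0.27, adjusted p = 0.0585). Timeless missed it too, at 5.95 to 7.17 CPM at ZT4 and 10.8 to 13 at ZT16 (log2 fold change 0.87, SE 0.28, adjusted p = 0.0517). Cry2 (0.54) and Tipin (0.73), whose values did not overlap, and Bhlhe40 (0.27), Csnk1e (0.11) and Csnk1d (-0.03), whose values did, were not called. Csnk1d and Csnk1e are kinases that act on the stability of the PER proteins. With DESeq2 in place of edgeR, 6 of the 12 were called higher.

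Both tested PAR bZIP factors rose, with no overlap. Dbp had 3.61, 3.87 and 3.54 CPM at ZT4 and 75.2, 132 and 119.6 CPM at ZT16. Its ZT4 values were close together (SD 0.176 CPM), and even the lowest ZT16 value was well above them (log2 fold change 4.88, SE 1.002, adjusted p = 0.00156). Tef had 16.9, 14.3 and 15.3 CPM at ZT4 and 85.7, 85.2 and 95.3 CPM at ZT16 (log2 fold change 2.52, SE 0.37, adjusted p = 2.29e-05). Dbp rose the most of all called genes.

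**Figure D2:**
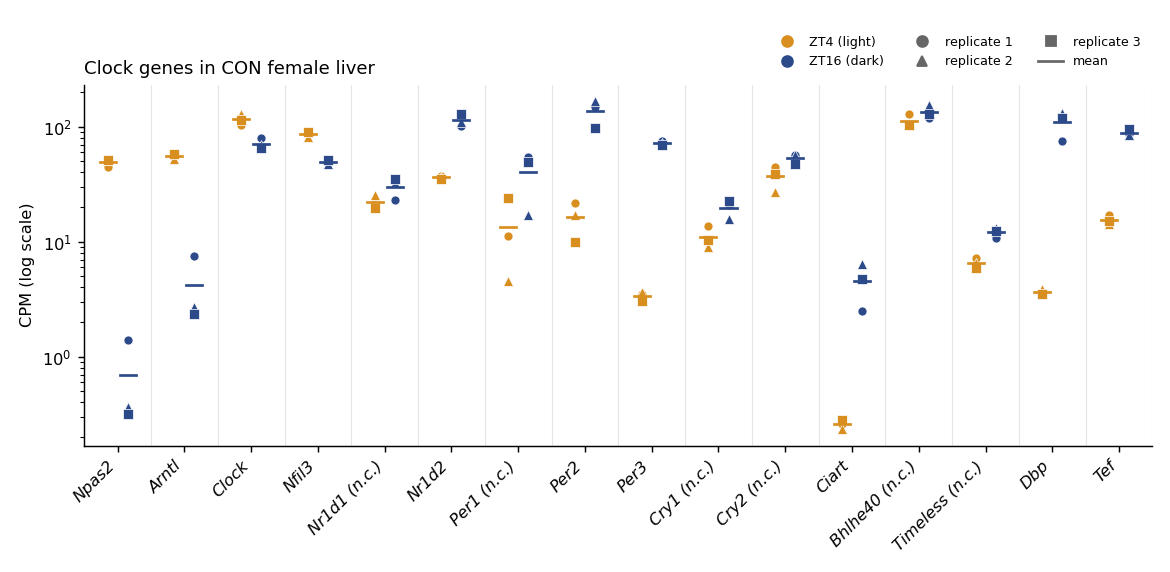
CPM (log scale) of 16 clock genes in each CON female library, orange for ZT4 and blue for ZT16, with 1 symbol per replicate and a bar at the mean; n.c. marks genes not called. Npas2 and Arntl are low at ZT16, Per2, Per3, Ciart, Dbp and Tef are high, and Nr1d1 and Per1 overlap.

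In 300-base windows around the start site (250 bases upstream and 50 downstream), CACGTG was found on either strand in 6.65% of 27457 RefSeq promoters and 9.29% of the 8969 tested genes that matched one. It was in 34 of the 226 matched genes called higher (15%) and 33 of the 307 called lower (10.7%). TTANGTAA was in 2.19% of all promoters, 1.28% of those of tested genes, 3.98% of those called higher (9) and 0.326% of those called lower (1). TAGGTCA was in 2.60% of all, 1.88% of tested, 2.21% of higher and 2.61% of lower genes. These are counts of letters, and neither binding nor a difference between the sets was tested. Among the other named genes, Nrg4 held a D-box match, Bhlhe40, Hsph1, Elovl5, Cth, Atf4 and Gnl3 an E-box, and Por a ROR core. Cry1, Csnk1d, Wee1, Ptk6, Acpp, G6pc, Abcb11, Ern1, Foxm1, Terc, Sorbs3, Cyp7a1 and Nampt matched no promoter window and were not searched.

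Outputs of the clock moved in both directions. Of 26 tested genes of this list, 7 rose and 4 fell (42.3% called, against 5.78% of all tested genes), with a median of 0.61. Usp2, a deubiquitinase under direct clock control, had 4.44, 1.47 and 5.16 CPM at ZT4 and 42.9, 45.7 and 57.8 CPM at ZT16 (log2 fold change 3.71, SE 0.56, adjusted p = 3.18e-05). Wee1, a kinase that holds back mitosis, had 2.12, 2.82 and 2.47 CPM at ZT4 and 15.5, 18.9 and 23.7 CPM at ZT16 (log2 fold change 2.97, SE 0.37, adjusted p = 1.08e-06). Por, which hands electrons to all microsomal cytochrome P450 enzymes, had 103, 83.9 and 116 CPM at ZT4 and 388, 401 and 569 CPM at ZT16 (log2 fold change 2.16, SE 0.42, adjusted p = 0.000768). None of the 3 overlapped between the times. Noct (2.47), Coq10b (1.60) and Klf15 (0.94) rose as well, and Pdk4, the kinase that shuts down pyruvate dehydrogenase, fell by 1.58 on the log2 scale from between 139.6 and 214 CPM to between 51.4 and 72.9 CPM. The kinase inhibitor Cdkn1a, described below with the largest falls, Avpr1a (-1.01) and Slc45a3 (-1.45) fell too, and Gys2, described below, rose. Alas1, the first enzyme of heme synthesis, had 195, 197 and 202 CPM at ZT4 and 335, 437 and 359.5 CPM at ZT16, and Nampt, which makes NAD from nicotinamide, had 84.6, 85.5 and 109.6 CPM at ZT4 and 199, 183 and 349 CPM at ZT16. Neither overlapped between the times, and both missed the threshold (adjusted p = 0.0779 and 0.0501). Hamp, the iron hormone hepcidin, had 468 to 541 CPM at ZT4 and 481 to 746 at ZT16, with a log2 fold change of 0.18.

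Among the 10 largest rises, besides clock and output genes, Nat8, an acetyltransferase of cysteine conjugates, had 3.61, 3.64 and 2.58 CPM at ZT4 and 19.2, 37.4 and 32.8 CPM at ZT16 (log2 fold change 3.17). Nrg4, a secreted ligand of the epidermal growth factor family, had 0.361, 0.528 and 0.505 CPM at ZT4 and 4.29, 6.34 and 4.75 CPM at ZT16 (3.42), and Vdr, the vitamin D receptor, 0.568, 0.645 and 0.449 CPM at ZT4 and 4.23, 7.56 and 3.32 CPM at ZT16 (3.13). Both were low in all 6 libraries. Mcpt1l1, a mast cell protease gene, had 0.155, 0.0587 and 0.0561 CPM at ZT4 and 2.35, 4.02 and 0.237 CPM at ZT16; its 3 ZT16 libraries held 35, 33 and 3 reads, so replicate 3 had no more than the ZT4 library with the most reads (3), and its call was lost without any 1 of 4 libraries (ZT16 replicate 2 and each at ZT4).

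The largest falls outside the clock lists included Ptk6, a tyrosine kinase, with 6.35, 5.28 and 5.95 CPM at ZT4 and 0.469, 0.488 and 0.158 CPM at ZT16 (log2 fold change -3.96, SE 0.65, adjusted p = 7.05e-05), and Rprm, an inhibitor of the cell cycle, with 4.03, 3.17 and 2.97 CPM at ZT4 and 0.335, 0.244 and 0 CPM at ZT16 (-4.04; 5, 2 and 0 reads at ZT16). Atp2b2, a calcium pump of the plasma membrane, had 52.9, 46.2 and 56.2 CPM at ZT4 and 8.72, 2.8 and 4.19 CPM at ZT16 (-3.25). Slc6a6, the taurine transporter, fell from between 24.4 and 52.4 CPM to between 3.96 and 4.11 CPM (-3.18), and Slc34a2, a sodium phosphate transporter, from between 37.3 and 56.9 CPM to between 5.06 and 6.51 CPM (-2.97). Acpp, an acid phosphatase, fell from between 15 and 20.3 CPM to between 1.42 and 2.75 CPM (-3.16). Cdkn1a, the p21 inhibitor of cyclin-dependent kinases, had 14.3, 11.9 and 20.9 CPM at ZT4 and 1.14, 1.22 and 0.475 CPM at ZT16 (log2 fold change -4.07, SE 1.06, adjusted p = 0.0153). Its call was lost without ZT16 replicate 1, 2 or 3 or ZT4 replicate 3.

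**Figure D3:**
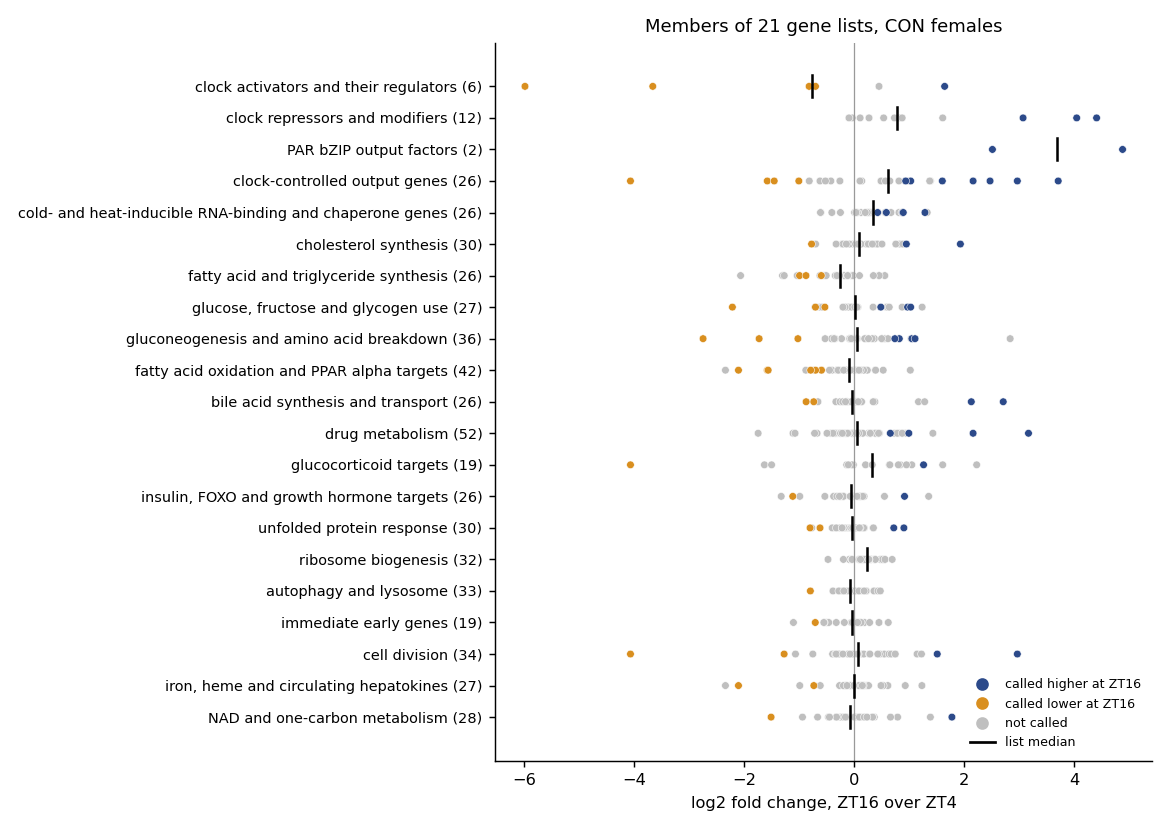
Log2 fold change of ZT16 over ZT4 in CON females for each tested member of 21 gene lists (number of members in brackets), blue where called higher, orange where called lower and grey where not called, with a black bar at the list's median. The 3 clock lists hold the lowest and the highest values, and the fatty acid lists hold no called rise.

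Of 30 cholesterol synthesis genes 2 rose and 1 fell (10% called, against 5.78% of all tested genes), with a median of 0.10. Hsd17b7 rose from between 14.6 and 16 CPM to between 18.5 and 39 CPM (0.95), a call lost in the fit of the 6 libraries alone, without the low-count filter, and without any 1 of 5 libraries (all but ZT16 replicate 1). Dhcr7, the last step of one branch to cholesterol, fell from between 216 and 269 CPM to between 119 and 186 CPM (log2 fold change -0.77, SE 0.23, adjusted p = 0.0309), a call lost without ZT16 replicate 1 or 3 or ZT4 replicate 1 or 2.

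Of 26 bile acid genes 2 rose and 2 fell (15.4% called, against 5.78% of all tested genes), with a median of -0.04. Cyp7a1, the rate-limiting enzyme of bile acid synthesis, had 76.3, 124 and 269 CPM at ZT4 and 661, 881 and 517 CPM at ZT16. The groups did not overlap but the ZT4 values were wide apart (log2 fold change 2.13, SE 0.65, adjusted p = 0.0423), and the call was lost in the fit of the 6 libraries alone, without the low-count filter, and without any 1 library except ZT4 replicate 3. Abcg5, part of the transporter that exports sterols into bile, had 2.06, 0.587 and 0.281 CPM at ZT4 and 2.41, 8.66 and 8.94 CPM at ZT16 (2.71); this call was lost with depth made equal, in the 6 libraries alone, and without ZT16 replicate 2 or 3 or ZT4 replicate 2 or 3. Abcb11, the bile salt export pump, was among the most read called genes, with 1149, 1388 and 1445 CPM at ZT4 and 695, 793 and 905 CPM at ZT16 (log2 fold change -0.73, SE 0.14, adjusted p = 0.000565). Abcb4, which moves phosphatidylcholine into bile, fell from between 151 and 163 CPM to between 63.8 and 115 CPM (log2 fold change -0.87, SE 0.21, adjusted p = 0.00607), a call lost without ZT16 replicate 1.

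Of 27 genes of glucose, fructose and glycogen use 3 rose and 3 fell, with a median of 0.01. This is 22.2% called, against 5.78% of all tested genes. Gckr, which binds glucokinase and holds it in the nucleus, had 296, 295 and 274 CPM at ZT4 and 77, 54.5 and 54.7 CPM at ZT16 (log2 fold change -2.21, SE 0.29, adjusted p = 2.29e-06), with both groups tight and far apart. On the glycogen side, Gys2, the liver's glycogen synthase, had 75.8, 66 and 80.7 CPM at ZT4 and 150.0, 163 and 141 CPM at ZT16 (log2 fold change 1.03, SE 0.24, adjusted p = 0.00413). Pygl, the liver's glycogen phosphorylase, had 542, 434 and 458 CPM at ZT4 and 324, 268 and 288 CPM at ZT16 (log2 fold change -0.70, SE 0.15, adjusted p = 0.0015). The synthase was thus higher and the phosphorylase lower at ZT16. Slc2a2, the liver's main glucose transporter, rose from between 309 and 456 CPM to between 704 and 857 CPM (0.97), and Sord, of the polyol pathway, by 0.49.

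Among 36 genes that make glucose or break down amino acids, 4 rose and 3 fell, with a median of 0.05. This is 19.4% called, against 5.78% of all tested genes. G6pc, the last step of glucose release, had 999.9, 337 and 938 CPM at ZT4 and 134, 17.8 and 186 CPM at ZT16. Replicate 2 was the lowest of its group at both times (log2 fold change -2.75, SE 0.65, adjusted p = 0.00644), and the call was lost in the 6 libraries alone or without ZT16 replicate 2. Cth, which makes cysteine from cystathionine, had 801, 909 and 749 CPM at ZT4 and 253, 304 and 186 CPM at ZT16 (log2 fold change -1.73, SE 0.36, adjusted p = 0.00186), and Gpt2, an alanine aminotransferase, had 130.3, 99.8 and 160.5 CPM at ZT4 and 279, 289 and 274 CPM at ZT16 (log2 fold change 1.11, SE 0.20, adjusted p = 0.000244). The other called members were Tdo2 (1.05), Arg1 (0.82) and Slc38a4 (0.74), which rose, and Hal (-1.02), which fell. Tdo2 and Hal open the breakdown of tryptophan and histidine, and Arg1 closes the urea cycle. Pck1, which was not called, had 1263, 291 and 2354 CPM at ZT4 and 845, 311 and 1831 CPM at ZT16, with replicate 2 lowest at both times as for G6pc; it was singled out after its values were seen.

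Fatty acid genes that passed the test all fell. Of 26 genes of fatty acid and triglyceride synthesis 3 fell and none rose, with a median of -0.26, and 21 had a negative log2 fold change. This is 11.5% called, against 5.78% of all tested genes. Elovl5, an elongase of polyunsaturated fatty acids, had 312, 339 and 346 CPM at ZT4 and 161, 155 and 186 CPM at ZT16 (log2 fold change -0.99, SE 0.24, adjusted p = 0.00689). Agpat3 fell from between 78.7 and 112 CPM to between 41.1 and 65 CPM (-0.88) and Agpat2 from between 43.4 and 57.5 CPM to between 30.5 and 36.8 CPM (-0.60). These acyltransferases make phosphatidic acid, and their calls were lost without ZT4 replicate 3 or ZT16 replicate 2 (both genes), or ZT16 replicate 3 or ZT4 replicate 1 (Agpat2). Fasn, not called and singled out after its values were seen, ranged over 2458 to 3336 CPM at ZT4 and 1293 to 3991 at ZT16.

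Of 42 genes of fatty acid oxidation and PPAR alpha targets 7 fell and none rose, with a median of -0.09. This is 16.7% called, against 5.78% of all tested genes, and 25 members had a negative and 17 a positive log2 fold change. Angptl4, a secreted inhibitor of lipoprotein lipase, had 209.8, 297 and 278 CPM at ZT4 and 43.2, 32.1 and 107 CPM at ZT16 (log2 fold change -2.10, SE 0.41, adjusted p = 0.000789; not called in the 6 libraries alone). Etfdh, which passes electrons from fatty acid oxidation to the respiratory chain, had 228, 258 and 252 CPM at ZT4 and 148, 127 and 152 CPM at ZT16 (log2 fold change -0.79, SE 0.16, adjusted p = 0.00104). Bdh1, an enzyme of ketone body metabolism, fell from between 171 and 191 CPM to between 103 and 121 CPM (-0.70). Crat (-1.56) and Pdk4 were also among the 7. Cpt1a, the entry step of oxidation, was not called, with 142, 101 and 141 CPM at ZT4 and 199, 227 and 352 CPM at ZT16 and a log2 fold change of 1.02 (adjusted p = 0.076). Fgf21, a hormone of fasting, had 5.99 to 9.6 CPM at ZT4 and 1.34 to 1.58 at ZT16 and was not called either (-2.34, adjusted p = 0.0637). Cpt1a and Fgf21 were singled out after their values were seen.

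**Figure D4:**
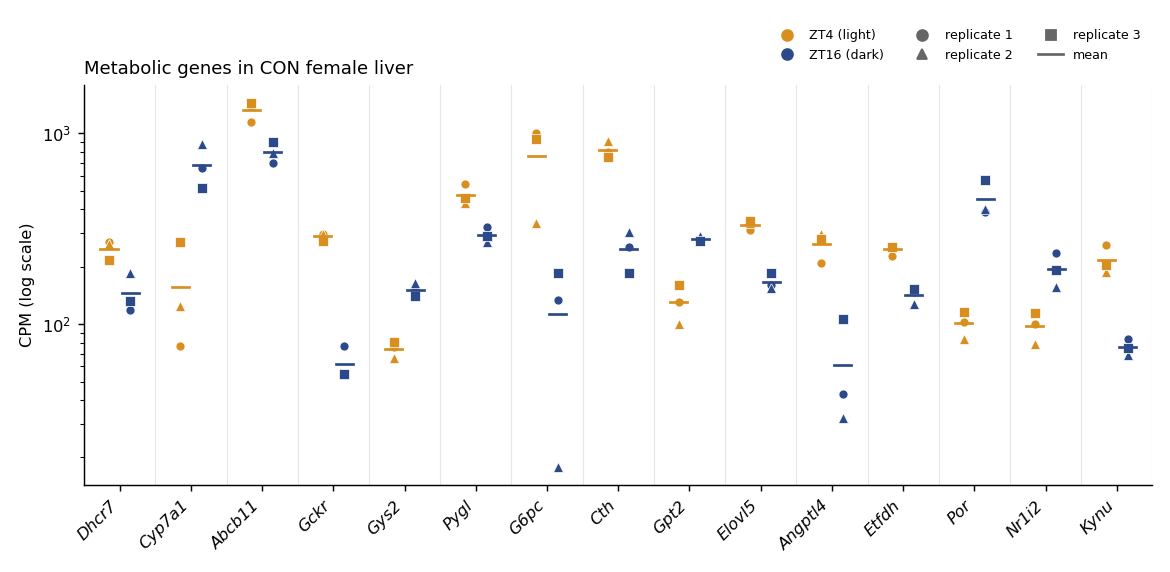
CPM (log scale) of 15 called metabolic genes in each CON female library, orange for ZT4 and blue for ZT16, with 1 symbol per replicate and a bar at the mean. Cyp7a1, Gys2, Gpt2, Por and Nr1i2 are higher at ZT16 and the other 10 lower, and Cyp7a1, G6pc and Angptl4 have the widest spread between replicates.

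Of 52 drug metabolism genes 4 rose and none fell, with a median of 0.05: Nat8, Por, Tpmt (0.66) and Nr1i2. This is 7.69% of the list, against 5.78% of all tested genes, and 28 members had a positive and 24 a negative log2 fold change. Nr1i2, the pregnane X receptor that senses foreign compounds, had 99.9, 79.1 and 114 CPM at ZT4 and 235, 156 and 193 CPM at ZT16 (log2 fold change 0.996, SE 0.20, adjusted p = 0.000891). Of 26 heat- and cold-inducible chaperone and RNA-binding genes 5 rose and none fell (19.2% called), with a median of 0.35. In this list 22 had a positive log2 fold change. Chordc1, a partner of HSP90, had 24.4, 28.1 and 19.8 CPM at ZT4 and 63.4, 59.3 and 53.9 CPM at ZT16 (log2 fold change 1.29, SE 0.28, adjusted p = 0.00262), Dnaja1, an HSP40, 167 to 196 CPM at ZT4 and 343 to 352 at ZT16 (0.89), and Hsph1, an HSP110, 65.9 to 111 CPM at ZT4 and 134 to 182 at ZT16 (0.88). Ahsa1 (0.59) and Hspd1 (0.43) rose by less. The calls of Dnaja1 and Hsph1 were lost without ZT16 replicate 2 or ZT4 replicate 3, and that of Hsph1 also without ZT16 replicate 1 or ZT4 replicate 2. The cold-inducible Cirbp was not called, at 13.5 to 20.9 CPM at ZT4 and 7.8 to 14.3 at ZT16 (-0.61, adjusted p = 0.077; singled out after its values were seen).

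The lists of hormone, stress and NAD genes held 2 to 4 called genes each, 7.14% to 13.3% of their members against 5.78% of all tested genes. Of 26 targets of insulin, FOXO and growth hormone, Stat5b, which carries the growth hormone signal, fell with 51.4, 51.7 and 60.8 CPM at ZT4 and 27, 22.3 and 26.1 CPM at ZT16 (log2 fold change -1.12, SE 0.17, adjusted p = 3.18e-05) and Pik3r1, the regulatory subunit of PI3 kinase, rose from between 93.5 and 100.2 CPM to between 159.6 and 212 CPM (0.92). Of 19 glucocorticoid targets Tsc22d3 rose (1.26) and Cdkn1a fell, with a median of 0.33. Of 30 genes of the unfolded protein response Herpud1 (0.72) and Edem1 (0.91) rose, while the sensor Ern1 (-0.80) and the transcription factor Atf4 (-0.62) fell, with a median of -0.04. Kynu, of tryptophan breakdown, had 259, 187 and 203 CPM at ZT4 and 83.8, 69.2 and 74.7 CPM at ZT16 (log2 fold change -1.51, SE 0.22, adjusted p = 1.49e-05) and Mthfd1l, a mitochondrial one-carbon enzyme, rose (1.78); they were the called genes among 28 of NAD and one-carbon metabolism (median -0.07).

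Single members were called in 2 further lists, 3.03% and 5.26% of their members, against 5.78% of all tested genes. Ulk1, which starts autophagy, fell (-0.80, 1 of 33, median -0.08), and Jund fell (-0.71, 1 of 19 immediate early genes, median -0.03). Of 34 cell division genes, Wee1 and Ccne1 (1.51) rose and Cdkn1a and Foxm1 (-1.27) fell (11.8% called), with a median of 0.07. Of 27 genes of iron, heme and circulating hepatokines, Angptl4 and the ferritin light chain Ftl1 (-0.73) fell (7.41% called, median 0.01). No member was called of 32 ribosome biogenesis genes, 27 of which had a positive log2 fold change (median 0.24; the smallest p was that of Gnl3, 0.69, adjusted p = 0.0526), or of 13 RNAs without a poly(A) tail (Terc, 1.08, adjusted p = 0.129). Among all marker lists, 1 gene was called: Pdgfrb, a receptor of stellate cells, fell from between 38.8 and 50.9 CPM to between 11.9 and 14.5 CPM (log2 fold change -1.80, SE 0.28, adjusted p = 4.06e-05). The summed macrophage and stellate markers, which did not overlap between the times, are given above, and their part in these changes was not tested. The calls of Tsc22d3, Atf4, Herpud1, Jund, Ulk1, Foxm1, Ftl1 and Pik3r1 were each lost without at least 1 single library.

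Part of the calls were also made in libraries that the comparison does not use. In CON males 5.35% of tested genes were called, 2.44% higher and 2.91% lower, and 103 of the 260 genes higher in CON females were among them (39.6% of the female calls and 38.3% of the 269 male calls). For the lower genes these were 153 of 379 (40.4%, and 47.5% of the 322 male calls). In HFhf females, where 9.15% were called, 4.84% higher and 4.31% lower, 149 higher (57.3%, and 27.9% of 535) and 171 lower genes (45.1%, and 35.9% of 476) were shared. In IUGR-HFhf females, where 7.95% were called, 4.22% higher and 3.73% lower, these were 116 (44.6%, and 24.9% of 466) and 130 (34.3%, and 31.6% of 412). No gene was called in opposite directions in CON females and any of the 3 groups. In all 4 comparisons 47 genes were called higher and 55 lower. Of the CON female calls, 66 higher and 121 lower genes were called in none of the other 3; this does not show a difference, which was tested by contrast.

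The difference between the time effects of CON females and CON males was called in 3 genes (0.0272%), each with the lower value in females. With an unadjusted p under 0.05 there were 736. Sorbs3, an adaptor protein of cell adhesions, had 40.3, 41.7 and 48.4 CPM at ZT4 and 72.9, 55.3 and 48.1 CPM at ZT16 in females and 22.6 to 25.6 CPM at ZT4 and 70.7 to 87.9 CPM at ZT16 in males. Its log2 fold change was 0.44 in females and 1.74 in males, a difference of -1.30 (adjusted p = 0.0365). Rps10, a protein of the small ribosomal subunit, had 13.5, 12.4 and 12.4 CPM at ZT4 and 11.6, 11.2 and 10.5 CPM at ZT16 in females and differed by -1.41 (adjusted p = 0.0268). Ribosomal protein genes have many near-identical copies in the genome between which reads can be split, so the counts of Rps10 are uncertain. In a fit of the 12 CON libraries alone none was called (1125 at an unadjusted p under 0.05). With 1 of the 12 libraries left out, Sorbs3 was called only without female ZT16 replicate 1 or male ZT16 replicate 1, and Rps10 only without male ZT16 replicate 1 or 2 or male ZT4 replicate 2; without any other library of the 12 neither was called.

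Cdkn1a was the named gene furthest apart between the sexes that the test did not call, apart from Mcpt1l1. It fell in CON females and had 43.1 to 130 CPM at ZT4 and 46.2 to 129 CPM at ZT16 in CON males, with a log2 fold change of -0.02. The difference of -4.05 had an adjusted p of 0.712. Of the clock genes, Npas2 changed by -7.72 in CON males, Arntl by -2.91, Per3 by 3.97, Per2 by 2.80 and Dbp by 4.12, and no difference between the sexes was called in them.

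The clock genes of HFhf and IUGR-HFhf females are set beside those of CON females because some were not called there. Dbp was 12.7 to 73.2 CPM at ZT4 and 16.3 to 53.6 CPM at ZT16 in HFhf females, and 7.83 to 102 CPM at ZT4 and 26 to 85.2 CPM at ZT16 in IUGR-HFhf females. The times overlapped in both groups. In HFhf females the overlap came from ZT4 replicate 3, at 73.2 CPM, while ZT4 replicates 1 and 2 were at 12.7 and 13.8 CPM, under every ZT16 value. In Per3 the same library had 24.8 CPM against 7.17 and 7.69 CPM in the other two, and 40.4 to 51.7 CPM at ZT16, with no overlap. The Dbp log2 fold changes were 0.16 (SE 0.80) and 0.14 (SE 0.72) against 4.88 in CON females. Without ZT4 replicate 3 of HFhf females that of Dbp was 1.48 (SE 0.98, adjusted p = 0.451 by edgeR) and that of Per3 2.57 (adjusted p = 0.0428 by edgeR), and the difference in Dbp from CON females was 3.40 in place of 4.73. Arntl changed by -1.25 and -1.10 against -3.66, and Per3 by 1.73 and 0.81 against 4.41. With all libraries edgeR called neither in these 2 groups, while DESeq2 called Per3 in HFhf females (adjusted p = 0.0374). In the libraries compared alone Arntl was called in HFhf females (adjusted p = 0.0258 by edgeR). Without the IUGR-RC libraries Arntl was called in both (adjusted p = 0.0343 and 0.0497 by edgeR) and Per3 in HFhf females (adjusted p = 0.0162 by edgeR). Npas2 (-4.87 and -4.01), Per2 (3.59 and 2.68) and Tef (1.53 and 1.02) were called in both. Nr1d1 was called lower at ZT16 in HFhf (-3.41) and IUGR-HFhf females (-2.56). Its mean at ZT4 was 91.7 and 87.1 CPM there, against 22 CPM in CON females. With only the libraries compared in the fit, edgeR kept the Nr1d1 call in HFhf females (adjusted p = 0.00927). In IUGR-HFhf females that call was lost in such a fit (log2 fold change -2.57, adjusted p = 0.0664 by edgeR).

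With all libraries the edgeR tests of these differences called no gene. For CON against HFhf females 484 genes had an unadjusted p under 0.05, and DESeq2 called 3, among them Nr1d1. For CON against IUGR-HFhf females 606 had one, and DESeq2 called 12, among them Dbp, Per3 and Nr1d1. In the edgeR fit of all libraries the difference in Nr1d1 was 3.86 from HFhf (SE 0.75, adjusted p = 0.0668) and 3.02 from IUGR-HFhf (SE 0.71, adjusted p = 0.291). The difference in Dbp was 4.73 (SE 1.24, adjusted p = 0.6) and 4.75 (SE 1.20, adjusted p = 0.357). Other sets of libraries did call clock genes. The difference in Nr1d1 from HFhf females was called by edgeR in the libraries compared alone (adjusted p = 0.0425, with Nr1d2 at 0.0348), without 4 doubted libraries (0.0379) and without IUGR-RC (0.0239). It was also called without CON ZT16 replicate 1 or HFhf ZT4 replicate 2 (adjusted p = 0.046 and 0.049). Why the 4 libraries were doubted is not given here. The 4 were IUGR-RC females at ZT4 (replicates 2 and 3), HFhf males at ZT16 (replicate 3) and IUGR-HFhf females at ZT4 (replicate 2). The last of them enters the IUGR-HFhf values given here. Without these 4, edgeR also called the time effect of Per3 in HFhf females (adjusted p = 0.0145). The differences from IUGR-HFhf females in Dbp (0.0395) and Per3 (0.0256) were called by edgeR without IUGR-RC, and that in Nr1d1 without IUGR-HFhf ZT16 replicate 3 (0.0487). Whether these differences were called thus depended on the libraries in the fit and on the tool.

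**Figure D5:**
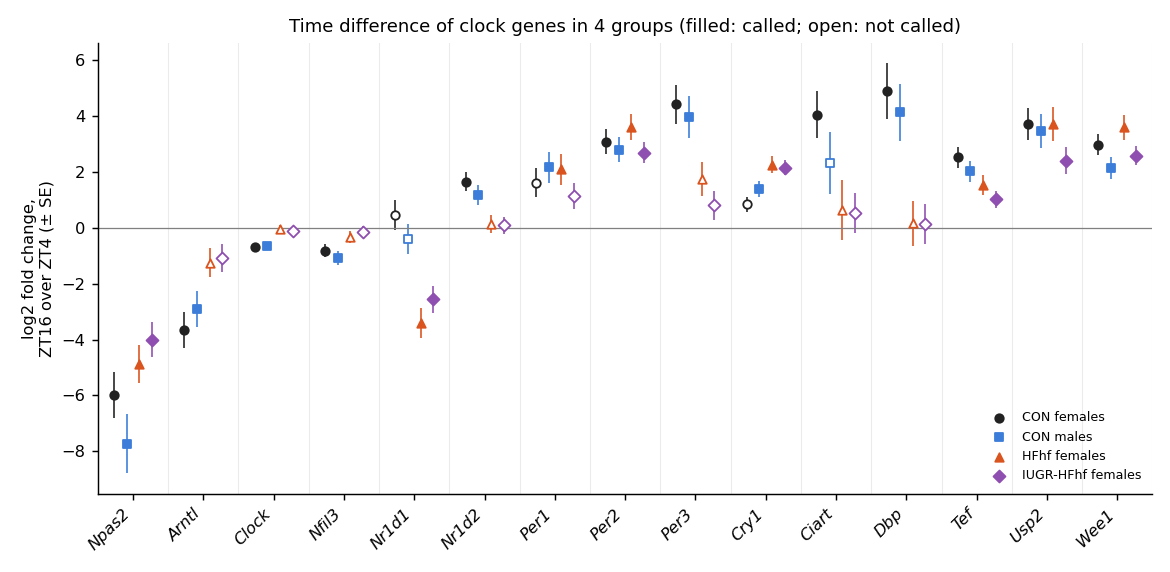
Log2 fold change of ZT16 over ZT4 (± SE) of 15 clock and output genes in CON females (black), CON males (blue), HFhf females (orange) and IUGR-HFhf females (purple), filled where called and open where not. Per2, Tef, Usp2 and Wee1 are called higher in all 4 groups, while Arntl, Per3 and Dbp are called in CON females and CON males and not in the 2 HFhf groups.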

How the data were processed

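Liver RNA was sequenced. Per the labels' protocols, libraries came from a stranded kit that removes ribosomal RNA, while the molecule label reads polyA RNA and the source label reads mouse. Build rn6 and the tools STAR, featureCounts of Subread, FastQC and DESeq2 are listed in the submitters' processing notes; settings, strand use included, are not given in the sources used here. The authors deposited raw counts of reads per gene symbol, unnormalized (17337 genes). The authors' tables of diet comparisons were not used here. All 56 libraries, in 16 groups of sex, time and diet, entered 1 fit in edgeR 4.0.16 (R 4.3.3): filterByExpr (11047 genes kept), TMM, two-sided quasi-likelihood F tests (robust; 40 residual df), Benjamini-Hochberg adjustment over all genes tested, threshold 0.05. Standard errors are the log2 fold change over the root of F. The p-values measure the spread between these libraries, pooled over groups; no 2 CON female libraries of a time agreed within counting error (chi-square per degree of freedom 24.0 to 38.6, expected 1). Alternatives were DESeq2 1.42.0, its size factors, no filter, fewer libraries and equal depth. The procedure was also run on counts simulated with the spread it had fitted, which cannot show how well that spread describes these rats. The groups and the 34 gene lists were chosen with earlier results of these data known; 700 of 743 list entries matched, 7 by RefSeq synonym. Named genes are all tested clock genes, the 10 largest called rises and falls with a mean of at least 1 CPM, no overlap and a gene symbol, up to 3 called members of each list with the smallest p (else the member with the smallest p), up to 3 called genes per direction and test of a difference, and Cyp7a1, Alas1, Nampt and Hamp; the other called list members are named too. Some of these genes are counted but not reported here.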

Additional observations from a re-analysis of the deposited data

Results flagged for a closer look

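The time effect of 3 genes differed between CON females and CON males by the test of the difference, out of 11047 tested. Among them, the log2 fold change in females minus that in males was -1.41 for Rps10 and -1.30 for Sorbs3. The 3 calls were kept with DESeq2 and with its size factors, and none was made in the fit of the 12 CON libraries alone. Of the 18 sets of 4 libraries checked for a single value far from the rest (6 clock genes in 3 groups), none held one. Sets of 3 libraries, HFhf females at ZT4 among them, were not checked in this way.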

How the results depend on the processing

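Of the 58 called genes named by the rule and reported, 51 kept their direction and call under the 7 settings that keep all 6 libraries, 37 kept them whichever 1 library was left out, and none changed sign. Without the IUGR-RC libraries 422 genes were called higher, and the genes shared with HFhf and IUGR-HFhf females were 519 and 462 (320 and 246 with all libraries). Differences from CON males were called in 5 genes there and in 0 in the libraries compared alone. Differences from HFhf females numbered 3 with DESeq2, 3 in the libraries compared alone, 3 without the 4 doubted libraries named above, and 4 without IUGR-RC. Differences from IUGR-HFhf females numbered 12, 1 and 4 with DESeq2, in the libraries compared alone and without IUGR-RC. The causes were not tested. Leaving out 1 library gave 122 to 222 genes higher, 176 to 351 lower, 45 to 77 at least 2-fold higher, 88 to 141 at least 2-fold lower, and 1 to 3, 0 to 2 and 0 to 2 differences from CON males, HFhf and IUGR-HFhf females. Signs turned in 3 genes that were not called: Csnk1d was 0.115 without ZT16 replicate 2 and 0.0307 without ZT4 replicate 1 (-0.172 to 0.115 over the 6 libraries), Csnk1e -0.00503 without ZT16 replicate 1 and -0.0438 without ZT4 replicate 2 (to 0.209), and Hamp -0.0572 without ZT16 replicate 3 (to 0.286). With reads thinned to equal depth 234 genes were higher and 333 lower. The median 95% interval reached 0.40 to either side (log2), and genes under 1 CPM have too few reads for changes of that size. No paired analysis was possible because the labels give no replicate numbers that pair the libraries.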

Other observations

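Several well-read genes outside the lists were called; they were chosen after their values were seen, among those with a mean of at least 50 CPM. Of those that fell, Crot, Chka, Gk and Plin2 act on lipids, and how many of the others do so was not counted. Crot, which moves medium-chain acyl groups onto carnitine, had 236, 278 and 246 CPM at ZT4 and 64.2, 36.7 and 39.3 CPM at ZT16 (log2 fold change -2.43, SE 0.43, adjusted p = 0.000241). Chka, the first enzyme of phosphatidylcholine synthesis from choline, had 91.3, 116 and 61.9 CPM at ZT4 and 18.3, 22.4 and 21 CPM at ZT16 (log2 fold change -2.13, SE 0.43, adjusted p = 0.00111). Gk, which phosphorylates glycerol, fell from between 361 and 480.4 CPM to between 138 and 175 CPM (-1.37), and Plin2, a coat protein of lipid droplets, from between 236 and 301 CPM to between 105 and 122 CPM (-1.27). Litaf, a membrane protein of late endosomes, had 145, 141 and 144 CPM at ZT4 and 26, 21.2 and 25.2 CPM at ZT16 (log2 fold change -2.57, SE 0.34, adjusted p = 4.87e-06) and was called lower in the other 3 comparisons too (-2.27, -1.88 and -1.81 in CON males, HFhf and IUGR-HFhf females).

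In steroid metabolism, Hsd17b2, which inactivates estradiol and testosterone, had 54.9, 65.4 and 66.2 CPM at ZT4 and 204, 419.8 and 406 CPM at ZT16 (log2 fold change 2.46, SE 0.69, adjusted p = 0.023). Its log2 fold change was 2.16 in CON males, -0.55 in HFhf females and -0.18 in IUGR-HFhf females; the differences from these groups were not called (adjusted p = 0.974, 0.692 and 0.59). Fdx1, which feeds electrons to mitochondrial P450 enzymes, fell by 1.48 on the log2 scale, from between 114 and 142 CPM to between 43.7 and 51.8 CPM. Ifi47 and Igtp, interferon-induced GTPases also chosen after their values were seen, both fell, and other members of the family were not counted. Ifi47 had 123, 177 and 87.7 CPM at ZT4 and 27.4, 52.2 and 29.98 CPM at ZT16 (-1.83). Igtp had 76.8 to 91.7 CPM at ZT4 and 29.6 to 48.5 at ZT16 (-1.04). Ifi47 changed by -0.15 in CON males, and the difference was not called (adjusted p = 0.712). Cyp2c12, a female-specific P450 of rat liver, was at 3935 to 5157 RPM at ZT4 and 4387 to 4969 at ZT16 in CON females, against 36.1 to 205 in CON males.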
